A study of Rattus norvegicus with 59 samples.

Results

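The 6 genes P2ry12, Cx3cr1, C1qb, Lyz2, Ctss and Aif1 of microglia and macrophages were followed through 5 brain regions of inbred alcohol-preferring (iP) and inbred alcohol-non-preferring (iNP) rats. Every probe set that carried one of these as its only gene symbol in the array annotation was taken. All 6 genes were on the array, with 9 probe sets, out of 4736 genes and 8740 probe sets in all. P2ry12, Cx3cr1, Ctss and Lyz2 had 1 probe set each, C1qb had 2 on the same sequence record, and Aif1 had 3. Of the 9 probe sets, 8 passed the filter on dim signals and were tested. The third Aif1 probe set (U33471_at) had a mean log2 signal of 7.51, just under the lowest mean tested (7.65), and its signal ran from 132.8 to 252.2 over the 59 arrays.

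The iP rats were of the line iP5C and the iNP rats of the line iNP1, 6 adult males of each, and every array held RNA of 1 region of 1 rat. Each line is a single inbred strain, so a line difference here is a difference between 2 strains. The labels give 1 protocol of housing and decapitation for all animals, and the protocols describe no alcohol exposure. The arrays were 6 iP and 6 iNP in striatum, hippocampus, amygdala and nucleus accumbens, and 5 iP and 6 iNP in frontal cortex. The cortex of iP animal 6 is not analysed here.

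Microglia are the resident macrophages of the brain. They scan the tissue with fine processes, sense purines through P2ry12 and the neuronal ligand fractalkine through Cx3cr1, tag synapses and debris with complement, and digest what they take up in lysosomes rich in cathepsins. Lysozyme M, the product of Lyz2, is abundant in blood-derived myeloid cells and tissue macrophages, whereas P2ry12 is used as a marker of resting resident microglia. In tissue RNA of this kind, fewer cells of a type and less RNA per cell cannot be told apart.

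The array signal is the intensity of a probe set on a linear scale, and differences are given on the log2 scale. The median of an array lay between 251 and 391. Neuronal, astrocyte and myelin genes were bright on every array, with summed signals of at least 43871, 63094 and 37052. Of other microglial markers on the list, C1qc was measured, whereas Csf1r (mean log2 signal 5.63) and Itgam (5.80) lay below the tested range. By median correlation of the log2 signals, 53 arrays lay nearest their own region and 6 nearest another. Cortex of iP animal 5 lay nearest amygdala and was the only array with a Gapdh 3′ to 5′ log2 ratio of 6.14, where the others ran from -0.15 to 0.44. Amygdala of iP animal 1 lay nearest cortex. Amygdala of iNP animals 7 and 8 lay nearest accumbens, accumbens of iP animal 4 nearest amygdala, and striatum of iP animal 5 nearest cortex by a narrow margin (0.239 against 0.235). All were kept, and values without them are given where a result rests on them.

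P2ry12 was lower and Lyz2 was higher in iP than in iNP animals when each animal's regions were averaged. The members were chosen with this opposite pair already known, so their count is a description. P2ry12 and Lyz2 were the 2 called of the 8 member probe sets, at an adjusted p under 0.05, where 2.65% of all 5244 tested probe sets were called either way. The same 2 of 8 had animal means that did not overlap between the lines, against 2.84% of all probe sets. Each gene is measured by 1 probe set, so no second probe set checks either difference. Probe sequences and strain genotypes were not used here, so a sequence difference between the 2 strains under a probe was not tested and could not be told apart from a difference in RNA level.

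P2ry12 encodes a receptor for ADP that directs microglial processes toward sites of injury. As means over each animal's regions, its log2 level had a lowest value of 8.77, a median of 9.02 and a highest of 9.32 in iP animals, against 9.39, 9.76 and 10.05 in iNP animals. On the signal scale the animal means were 463, 639, 438, 516, 551 and 520.0 in iP animals 1 to 6. They were 1059, 1053, 672, 813, 898 and 841 in iNP animals 7 to 12. Every iP animal lay below every iNP animal, and iNP animals 7 and 8 were the highest of all. The difference was -0.77 ± 0.12 (log2 difference with SE; 6 and 6 animals; limma adjusted p = 0.000914), which is 0.588 of the iNP level. Without the 6 arrays nearest another region it was -0.80 ± 0.12 (limma adjusted p = 0.000884).

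Lyz2 encodes lysozyme M, an enzyme of myeloid granules and lysosomes that cuts bacterial cell walls. Its log2 animal means had a lowest value of 10.65, a median of 10.70 and a highest of 10.90 in iP animals, against 10.09, 10.16 and 10.37 in iNP animals. On the signal scale they were 1728, 1609.9, 1674, 1909, 1657 and 1651 in iP animals 1 to 6. They were 1114, 1088, 1142, 1249, 1326 and 1148 in iNP animals 7 to 12. Every iP animal lay above every iNP animal, and the 6 animals of each line lay close together. The difference was 0.54 ± 0.06 (n = 6 and 6; limma adjusted p = 6.05e-05), or 1.45 times the iNP level.

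**Figure D1:**
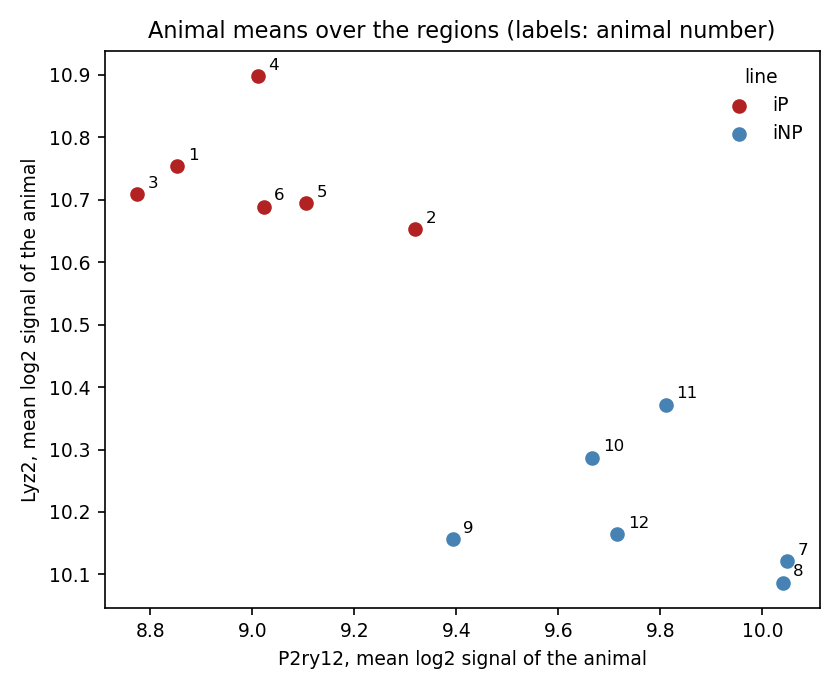
Mean log2 signal of P2ry12 (x axis) and Lyz2 (y axis) in each animal over its regions, with the mean of each region removed, and the animal number beside each point; iP animals are red and iNP animals blue. The 6 iP animals lie at low P2ry12 (8.77 to 9.32) and high Lyz2 (10.65 to 10.90), and the 6 iNP animals at high P2ry12 (9.39 to 10.05) and low Lyz2 (10.09 to 10.37).

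Within a line, animals with less P2ry12 did not have detectably more Lyz2. Across the 6 iP animals Pearson's r was -0.32 (exact permutation p = 0.51) and Spearman's rho was -0.71 (exact p = 0.136). Across the 6 iNP animals r was -0.27 (exact permutation p = 0.624) and rho was -0.43 (exact p = 0.419). Both Pearson p-values were 0.624 after adjustment over the 2 relations. With the 2 animals farthest from the median P2ry12 level left out, r was -0.20 in iP and -0.56 in iNP (n = 4 each). The lines form separate clusters in the plot of animal means, so no r over all animals is given.

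P2ry12 was lower in iP in 5 of 5 regions by its mean, and it fell past the threshold in hippocampus and amygdala. In hippocampus its signal was 266 at the lowest, 504 at the median and 667 at the highest in iP arrays, against 783, 905 and 1010.4 in iNP arrays. All iP arrays lay below all iNP arrays, and the difference was -0.93 ± 0.18 (n = 6 and 6; limma adjusted p = 0.0252). P2ry12 was the 1 member probe set called there, where 0.667% of all were called. In amygdala the signals were 496, 605 and 728 in iP and 833, 902 and 1136 in iNP. P2ry12 was the 1 of 8 without overlap there, where 1.14% of all were. The difference was -0.61 ± 0.12 (n = 6 and 6; limma adjusted p = 0.0274), and P2ry12 was again the 1 member called, where 0.725% of all were. Without amygdala of iP animal 1 it was -0.56 ± 0.12 (limma adjusted p = 0.0368). Without that array and those of iNP animals 7 and 8 it was -0.58 ± 0.13 and no longer passed (limma adjusted p = 0.0931). Both calls lay near the threshold. With 1 animal left out, the hippocampal call was lost without iP animal 6 or iNP animal 7, 10, 11 or 12 (limma adjusted p from 0.057 to 0.0777). The amygdala call was lost without iP animal 3, 4 or 5 or iNP animal 8, 9, 10 or 11 (0.056 to 0.0844).

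In the other regions P2ry12 did not pass. Striatal signals were 366, 458 and 722 in iP and 623, 781 and 1421 in iNP, and the lines overlapped through iP animal 2 at 722. None of the 8 was without overlap in striatum (0 of 8; 1.43% of all). The striatal iNP arrays of animals 7 and 8 stood at 1421 and 1378, while the other iNP arrays ran from 623 to 781. The difference was -0.93 ± 0.22 (n = 6 and 6; limma adjusted p = 0.0655), and 0 member probe sets were called in striatum, where 0.839% of all were. With animals 1, 2, 7 and 8 set against the others as a covariate, a grouping seen in the data, the striatal fall passed (limma adjusted p = 0.00114). That grouping sets apart the high iNP arrays of animals 7 and 8, so it is a description and no added support. The fall also passed without iP animal 2 (limma adjusted p = 0.0191) or iNP animal 9 (limma adjusted p = 0.0353). These settings are named because they passed, and the main striatal result remains not called. Cortical signals were 585, 461, 283, 491 and 773 in iP animals 1 to 5, against 619 at the lowest, 738 at the median and 1222 at the highest in iNP. The highest iP value came from the array that lay nearest amygdala. The cortical difference was -0.72 ± 0.25 (n = 5 and 6; limma adjusted p = 0.731), and without that array it was -0.88 ± 0.23 (limma adjusted p = 0.19). No member was called in cortex (0 of 8), where 0.229% of all were. Accumbens signals were 379, 567 and 881 in iP and 461, 944 and 1246 in iNP, with wide overlap. The accumbens difference was -0.63 ± 0.23 (n = 6 and 6; limma adjusted p = 0.523).

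Lyz2 was higher in iP in 4 of 5 regions by its mean and rose past the threshold in accumbens. There its signal was 1564 at the lowest, 2526 at the median and 2774 at the highest in iP, against 812, 1214 and 1548 in iNP. Every iP array lay above every iNP array, for Lyz2 as 1 of 8 and for 1.07% of all probe sets. The lowest iP array (animal 5) stood well below the next, at 2293. The difference was 1.04 ± 0.17 (n = 6 and 6; limma adjusted p = 0.00575), which is 2.06 times the iNP level. Lyz2 was the 1 member probe set called in accumbens, where 0.572% of all were called. Without accumbens of iP animal 4, which lay nearest amygdala, the difference was 0.99 ± 0.17 (limma adjusted p = 0.0115).

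In hippocampus the lines had like Lyz2 signals: 973, 1120.2 and 1509 in iP, against 1054, 1229 and 1442 in iNP. The hippocampal difference was -0.07 ± 0.12 (n = 6 and 6; limma adjusted p = 0.938). In cortex the iP signals were 1578, 1473, 1548, 2017 and 2636 in animals 1 to 5, and the iNP signals were 851 at the lowest, 1033 at the median and 1444 at the highest. The cortical lines did not overlap (1 of 8 member probe sets, and 1.22% of all), but the difference of 0.73 ± 0.19 did not pass (n = 5 and 6; limma adjusted p = 0.292). Without iP animal 5 it was 0.60 ± 0.16 (limma adjusted p = 0.212). In amygdala the signals were 1726, 2193 and 3126 in iP and 1023, 1586 and 1896 in iNP, with overlap through iP animal 1 alone, the array nearest cortex. That difference was 0.62 ± 0.17 (n = 6 and 6; limma adjusted p = 0.161) and 0.70 ± 0.16 without this array (limma adjusted p = 0.0574). In striatum the signals were 728, 1372 and 1612 in iP and 735, 1029 and 1200 in iNP. iP animal 5 was lowest and the other iP arrays lay above all iNP arrays. The striatal difference was 0.39 ± 0.18 (n = 6 and 6; limma adjusted p = 0.61).

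**Figure D2:**
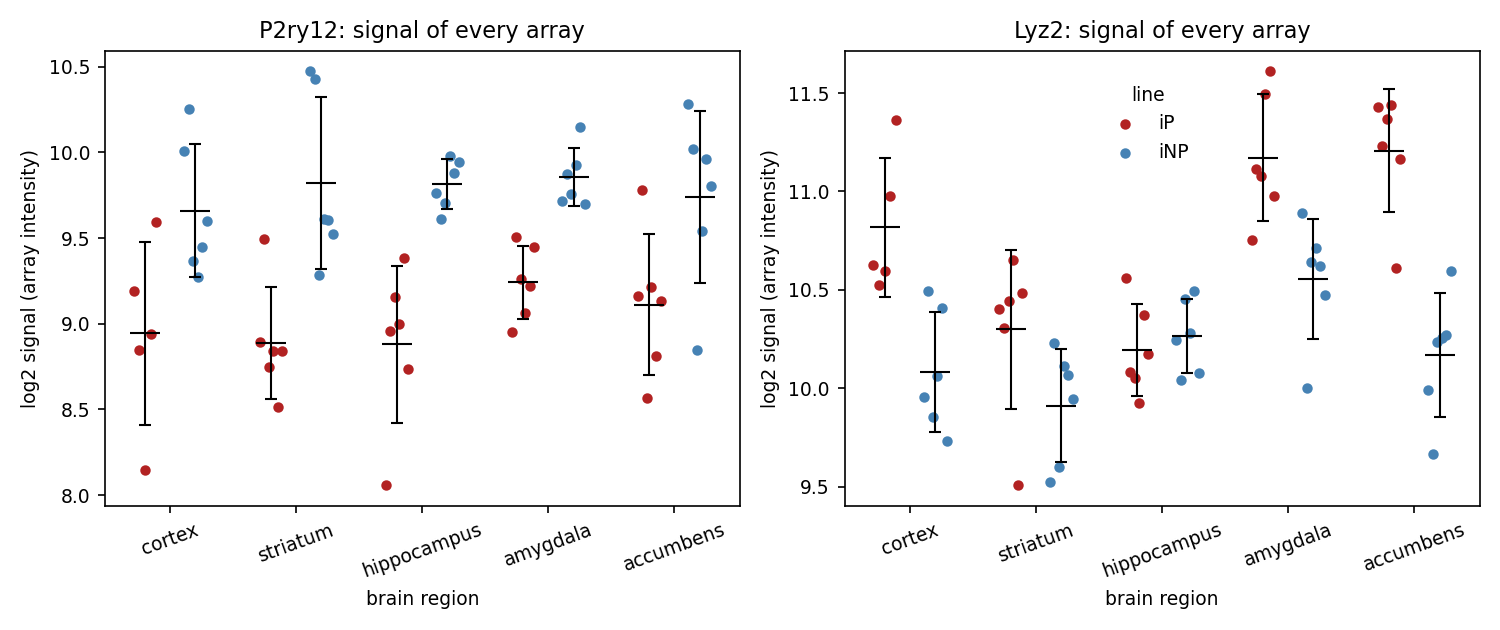
Log2 signal of P2ry12 (left panel) and Lyz2 (right panel) on every array by brain region (x axis), with iP arrays in red left of iNP arrays in blue; bars give the mean and SD of each group. The iP arrays lie wholly below the iNP arrays for P2ry12 in hippocampus and amygdala, and wholly above them for Lyz2 in cortex and accumbens, while the Lyz2 groups mix in hippocampus.

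A test of whether the line difference varied between regions was passed by neither gene. The moderated F statistic was 5.12 for Lyz2 (limma adjusted p = 0.956) and 0.63 for P2ry12 (limma adjusted p = 0.972). No probe set was called in this test (0%; 242 at an unadjusted p under 0.05 by limma). In simulated data the same test recovered 22.4% of log2 line changes of 0.5 placed in accumbens alone and 70.1% of changes of 1. The simulation drew independent noise for every array and changed many probe sets at once, which eases the adjustment. Its shares may therefore be too high for the real data, where no probe set was called. The accumbens and hippocampus values of Lyz2 are therefore given side by side, without a tested difference between them.

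The other members did not pass in any line comparison. Ctss, which encodes a lysosomal protease that trims the invariant chain during antigen presentation, was lower in iP in 5 of 5 regions, by -0.28 to -0.07. Of the 8 member probe sets, 3 had the same sign in all regions (P2ry12, Ctss and the dimmer C1qb probe set), where 16.3% of all did. In hippocampus Ctss signals were 5735, 6192 and 6782 in iP and 6985, 7609 and 8057 in iNP. The hippocampal lines did not overlap. The difference of -0.28 ± 0.06 stayed short of the threshold (n = 6 and 6; limma adjusted p = 0.0705), and it passed with quantile normalization (-0.28; limma adjusted p = 0.042). P2ry12 and Ctss were the 2 of 8 without overlap in hippocampus, where 1.28% of all were. Averaged over regions, Ctss differed by -0.13 ± 0.04 (n = 6 and 6; limma adjusted p = 0.205). Without the 6 arrays nearest another region, a setting chosen after seeing the data, it passed at -0.17 ± 0.04 (limma adjusted p = 0.0325). The settings under which Ctss passed are named because they passed, and its main line results remain not called.

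Cx3cr1, the receptor for fractalkine, had log2 animal means of 8.46 ± 0.09 in iP and 8.56 ± 0.13 in iNP (SD, n = 6 each). Its difference of -0.09 ± 0.08 did not pass (limma adjusted p = 0.678), and its regional differences ran from -0.28 to 0.02. C1qb, the B chain of the C1q complex that starts the classical complement pathway, differed by 0.11 ± 0.09 on the brighter probe set (X71127_at; limma adjusted p = 0.679). The dimmer one (X71127_g_at) differed by 0.10 ± 0.07 (limma adjusted p = 0.637). Both lie on the same sequence record and are no independent check of each other. Aif1, the calcium-binding protein Iba1 used to stain microglia, differed by 0.08 ± 0.11 on U10894_s_at (limma adjusted p = 0.857). Its other tested probe set, U17919_s_at, differed by -0.04 ± 0.13 (limma adjusted p = 0.95). The Aif1 probe sets were dim, with signals of 151 to 782 and 129 to 494 over the arrays.

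**Figure D3:**
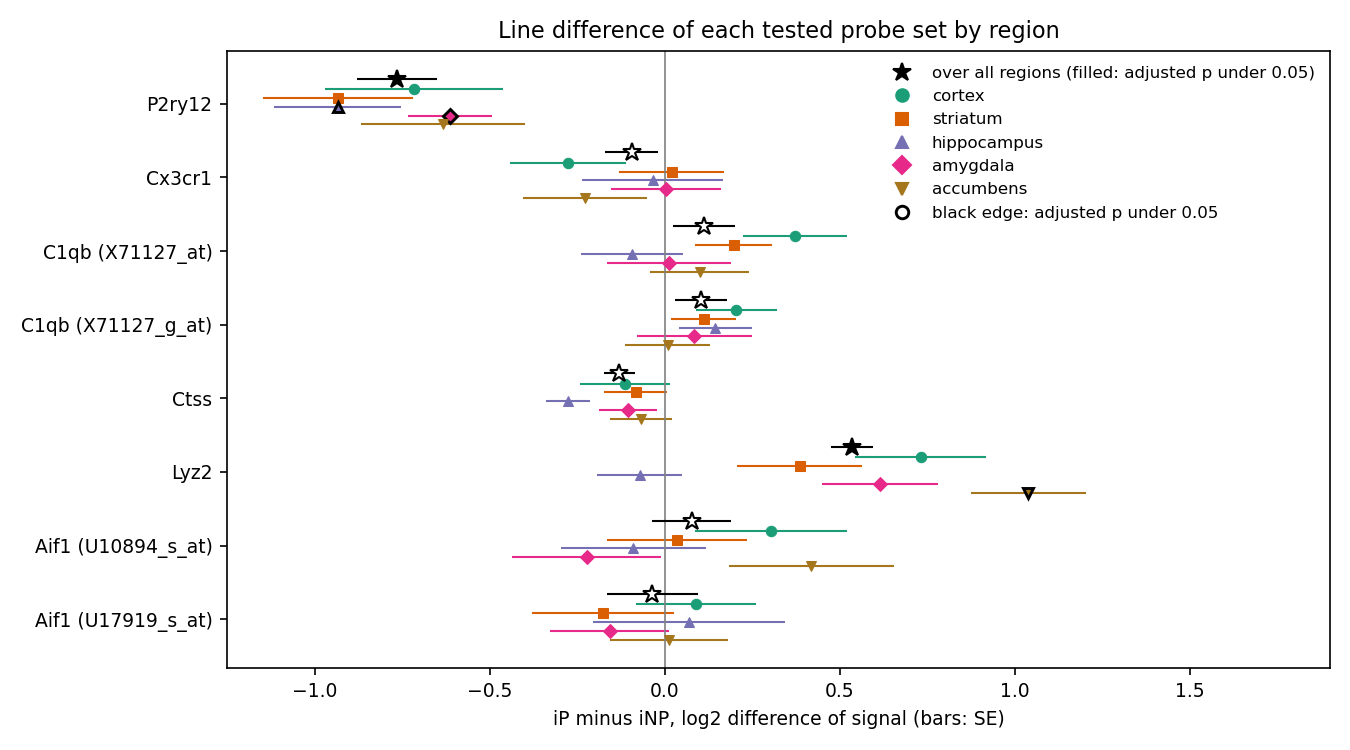
Difference of iP minus iNP (x axis, log2; bars give the SE) for each of the 8 tested member probe sets (rows), over all regions (star) and in each region (coloured symbols); a filled star or a black edge marks an adjusted p under 0.05. P2ry12 lies left of 0 in all regions and Lyz2 right of 0 in all but hippocampus (-0.07), while the remaining probe sets lie between -0.28 and 0.42.

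Genes around the members in their pathways mostly did not pass between the lines, and neither did most probe sets. Over all regions 2.65% of all tested probe sets were called either way. Lists of these sizes would hold few calls or none at that share, so the counts do not set them apart. Of 35 listed homeostatic microglia genes beside the members, 13 were on the array and 8 were tested, and 0 of 8 passed over all regions (median difference -0.02, against -0.01 for all tested probe sets). The brightest were the actin-binding gene Coro1a (0.09 ± 0.06), C1qc (-0.05 ± 0.06) and the transcription factor gene Runx1 (0.00 ± 0.06). Of 17 tested phagosome and activation genes 0 passed, with a median of 0.03. The farthest from 0 among them was the invariant chain gene Cd74 (0.80 ± 0.27; limma adjusted p = 0.207), a gene singled out after its value was seen. None of 6 complement genes and none of 11 cathepsin, cystatin and lysosomal genes passed (0 calls in each; medians -0.02 and 0.04). Of 12 tested ligands and neuronal signals to microglia 0 passed, and the fractalkine gene Cx3cl1 differed by -0.05 ± 0.06.

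Of 13 tested genes of purine signalling beside P2ry12, 1 passed and was lower in iP, the nucleoside transporter gene Slc28a2 (-0.80 ± 0.12; limma adjusted p = 0.000605). The list had a median of -0.13, and 2.65% of all tested probe sets were called over all regions. The purine receptor genes P2rx4 (-0.17 ± 0.06; limma adjusted p = 0.213) and P2ry6 (-0.08 ± 0.08) and the ectonucleotidase gene Entpd1, whose product degrades extracellular ATP (-0.13 ± 0.08; limma adjusted p = 0.536), did not pass.

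Single genes of the blood, vessel and blood myeloid lists also fell in iP, where 2.65% of all tested probe sets were called either way. Of 5 blood cell transcripts, the globin gene Hbb-b1 fell by 0.38 ± 0.09 in iP (limma adjusted p = 0.0414) and the list's median was -0.30. Their summed signal, averaged over each animal's regions, was 29570 to 37855 in iP and 36595 to 54253 in iNP. Of 9 endothelial and mural genes, the adhesion molecule gene Pecam1 fell by 0.47 ± 0.08 (limma adjusted p = 0.00161), and the list's median was -0.16. The other 8 did not pass, the brightest being Slc2a1 (0.01 ± 0.07), Slco1a4 (0.01 ± 0.08) and Acta2 (-0.16 ± 0.13). Of 10 markers of blood monocytes, neutrophils and perivascular macrophages on the array, 2 were tested, and the fibronectin gene Fn1, which many cell types express, fell by 0.55 ± 0.07 (limma adjusted p = 8.89e-05). The defining markers S100a8 (mean log2 signal 5.04), S100a9, Ccr2 (4.76), Mmp8 and Mmp9 (6.24) lay below the tested range. The summed signal of these 10 genes was 1766 to 2409 in iP animals and 2412 to 2775 in iNP animals. Fn1 was the brightest of the 10, so the sum is weighted to Fn1 and is no separate check of its fall. In accumbens, where Lyz2 rose, that sum was 2321 to 4720 in iP and 3054 to 3686 in iNP. There 0 genes of any of the 14 lists passed between the lines, where 0.572% of all tested probe sets did. The part of these markers in the differences of P2ry12 and Lyz2 was not tested. Of T and B lymphocyte, astrocyte, myelin, neuronal and choroid plexus genes (3, 7, 9, 8 and 4 tested), 0 passed over all regions.

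**Figure D4:**
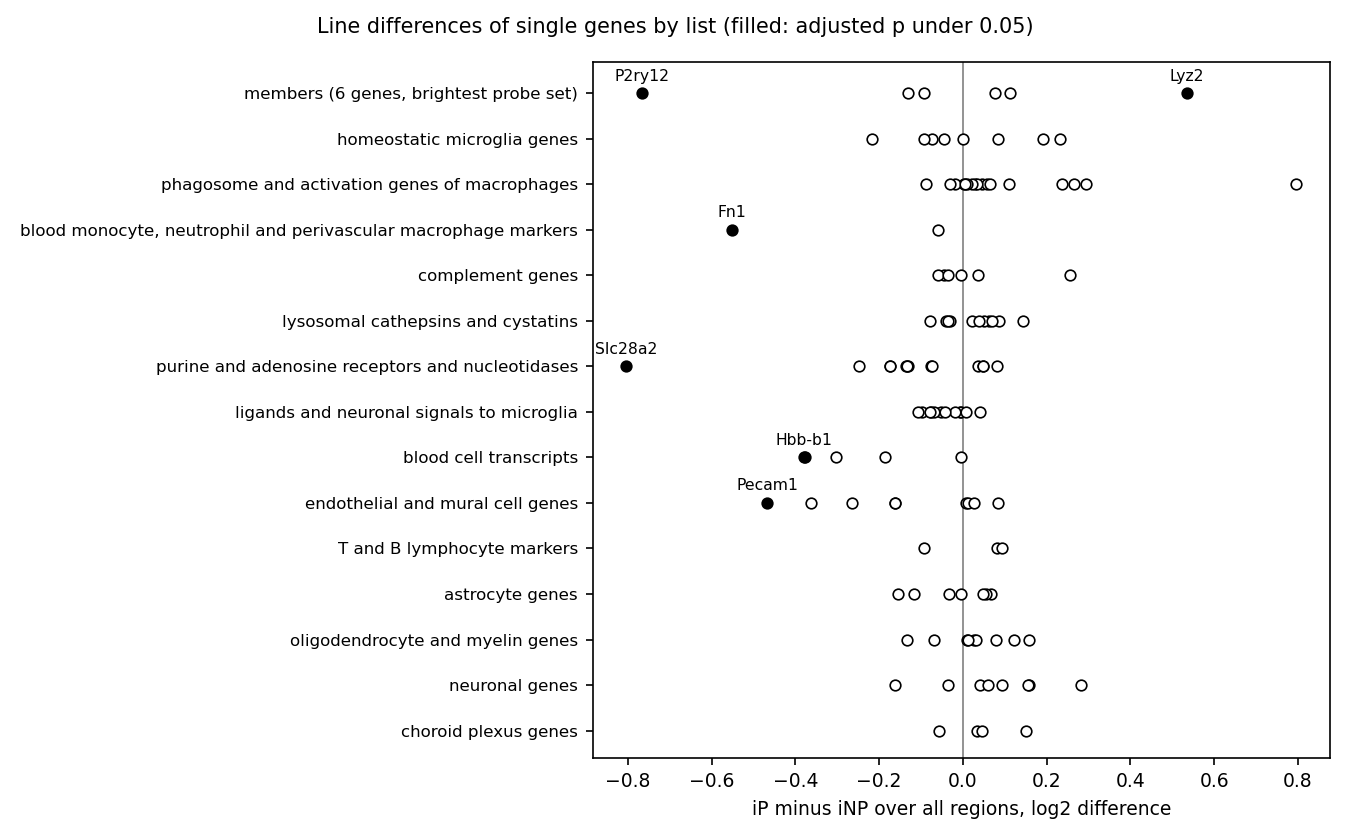
Difference of iP minus iNP over all regions (x axis, log2) for each tested gene of the members and of 14 gene lists (rows); filled points have an adjusted p under 0.05 and are named. P2ry12 and Lyz2 stand at -0.77 and 0.54, and the other filled points, Fn1, Slc28a2, Hbb-b1 and Pecam1, all lie left of 0.

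Between regions, with both lines together, the members followed more than 1 pattern. Ctss, C1qb and Aif1 were lower in hippocampus and higher in amygdala or accumbens, Lyz2 was higher in amygdala and lower in striatum, and P2ry12 and Cx3cr1 passed in no region. A region is compared with the average of the remaining 4, paired by animal.

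In hippocampus 5 of 8 member probe sets fell and 0 rose, where 12.5% of all probe sets fell and 23.3% were called either way. They were both C1qb probe sets (-0.32 ± 0.08 and -0.28 ± 0.06; limma adjusted p = 0.00114 and 0.00011), Ctss (-0.22 ± 0.05; limma adjusted p = 0.000374) and both tested Aif1 probe sets (-0.47 ± 0.12 and -0.33 ± 0.09; limma adjusted p = 0.00218 and 0.00443). On its brighter probe set C1qb had hippocampal signals of 852 to 1449, with a median of 1144 (n = 12). Without the 6 arrays nearest another region, the same probe sets fell and Lyz2 with them (-0.31 ± 0.10; limma adjusted p = 0.0254). Those arrays were picked by their regional likeness in these same data, so this setting is a description and no added support.

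In amygdala 5 of 8 member probe sets rose and 0 fell, where 13.3% of all rose and 26.1% were called either way. Lyz2 rose by 0.50 ± 0.12 (limma adjusted p = 0.00121), the brighter C1qb probe set by 0.41 ± 0.08, the dimmer one by 0.19 ± 0.06, Ctss by 0.26 ± 0.05 (limma adjusted p = 4.83e-05) and Aif1 on U10894_s_at by 0.35 ± 0.12. C1qb on its brighter probe set had amygdala signals of 978 to 2191, with a median of 1781, above its hippocampal median. Without the 6 arrays nearest another region, P2ry12 (0.32 ± 0.12; limma adjusted p = 0.0288) and Cx3cr1 (-0.27 ± 0.10; limma adjusted p = 0.0356) passed as well. So did the other tested Aif1 probe set, U17919_s_at. Leaving out arrays picked by regional likeness in these data can itself sharpen a contrast between regions. The share of all probe sets called under that setting is not given here.

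In accumbens 4 of 8 rose and 0 fell, where 12.3% of all rose and 20.9% were called either way. These were both C1qb probe sets (0.21 ± 0.08 and 0.31 ± 0.06), Ctss (0.17 ± 0.05; limma adjusted p = 0.0083) and Aif1 on U17919_s_at (0.31 ± 0.09; limma adjusted p = 0.00957). The brighter C1qb probe set did not pass without the 6 arrays (0.17 ± 0.07; limma adjusted p = 0.0828). With every array centred on its own median, 1 of the 4 passed, the dimmer C1qb probe set. In cortex 2 of 8 fell, Ctss (-0.15 ± 0.05) and the dimmer C1qb probe set (-0.23 ± 0.06), where 17% of all were called and 9.19% fell, and with median centring 0 passed. In striatum Lyz2 fell by 0.45 ± 0.12 (limma adjusted p = 0.00573), 1 of 8, where 13.9% of all were called and 7.65% fell.

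The order of the regions differed between probe sets. Ctss ran amygdala, accumbens, striatum, cortex and hippocampus from high to low, with mean log2 levels of 13.12, 13.05, 12.87, 12.80 and 12.74 (n = 12, and 11 in cortex). The step from accumbens to striatum exceeded the larger SD of that pair, and the other neighbours did not differ beyond their spread. The brighter C1qb probe set had the same order, with its step also between accumbens (10.56) and striatum (10.29). The dimmer one had accumbens (9.95) before amygdala (9.86), and its step lay between striatum (9.72) and cortex (9.53). Aif1 on U10894_s_at had its step between striatum (8.50) and hippocampus (8.12), whereas U17919_s_at had accumbens first (8.51) and no neighbours that differed beyond their spread. Probe sets of the same gene thus did not give the same order. For P2ry12, whose means ran from 9.55 in amygdala to 9.33 in cortex, and for Cx3cr1, whose means ran from 8.69 in striatum to 8.34 in amygdala, no neighbours differed beyond their spread. The same held for Lyz2, highest in amygdala (10.86) and lowest in striatum (10.11).

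**Figure D5:**
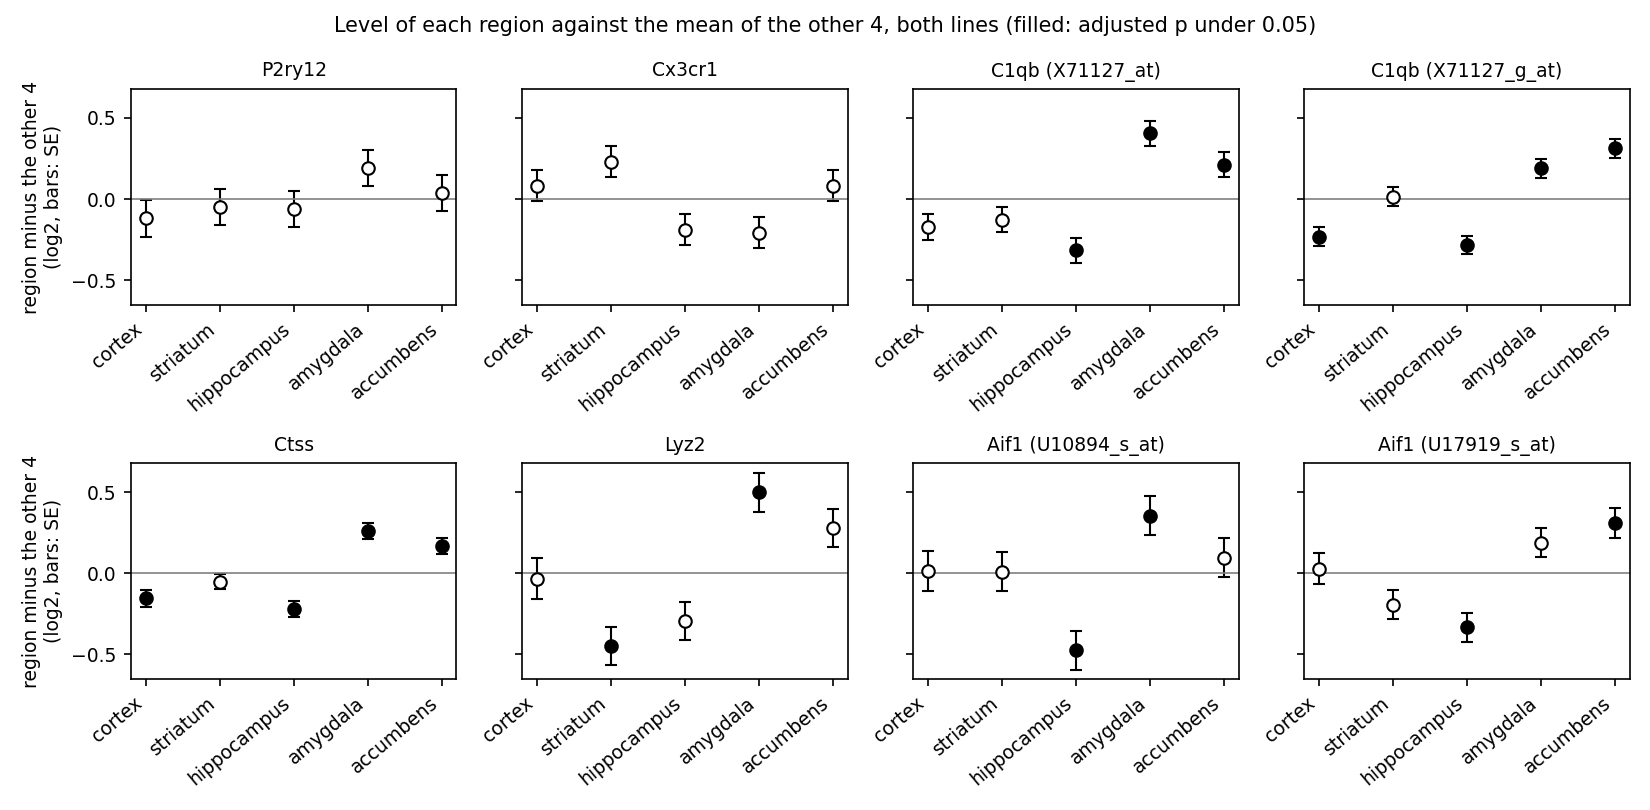
Level of each region minus the mean of the other 4 (y axis, log2; bars give the SE), both lines together, for the 8 tested member probe sets (panels); filled points have an adjusted p under 0.05. C1qb, Ctss and Aif1 fall in hippocampus and lie above 0 in amygdala and accumbens, Lyz2 is lowest in striatum (-0.45), and P2ry12 and Cx3cr1 have no filled point.

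Blood transcripts also differed between regions, with C1qb and Ctss in some regions and without them in others. Of the 5 blood cell transcripts, 4 fell in hippocampus (median -0.39), 3 rose in amygdala (median 0.23) and 4 rose in accumbens (median 0.62). In striatum 4 fell (median -0.32), where Ctss (-0.05 ± 0.05) and C1qb (-0.13 ± 0.08 and 0.015 ± 0.06) were not called. In cortex 0 of 5 passed (median -0.11), where Ctss and the dimmer C1qb probe set fell. In accumbens Hbb-b1 rose by 0.62 ± 0.08 and the platelet factor gene Pf4 by 0.67 ± 0.12. The part of blood in the regional levels of the members was not tested. Choroid plexus genes, summed over 7 genes, ran from 3810 to 42796 in hippocampal iP arrays and from 5375 to 68297 in hippocampal iNP arrays, a wide spread in both lines.

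Other lists are read beside the share of all probe sets called either way, which was 23.3% in hippocampus, 26.1% in amygdala and 20.9% in accumbens, and no difference between lists was tested. Of 17 phagosome and activation genes, 5 fell and 2 rose in hippocampus. Cd74 (-1.60 ± 0.31), the galectin gene Lgals1 (-1.57 ± 0.22), Vim (-1.12 ± 0.13) and the NADPH oxidase subunit gene Cyba (-1.08 ± 0.20) fell the most, and the lipoprotein lipase gene Lpl rose by 0.69 ± 0.09. In amygdala 6 of the 17 rose and 1 fell, with Cd74 at 1.32 ± 0.31, Lgals1 at 1.15 ± 0.22 and Vim at 0.94 ± 0.13. In accumbens 7 rose and 1 fell, with Cd74 at 1.63 ± 0.31. Vim, Lgals1 and Cd74 are also expressed by vascular and other cells. Of 11 cathepsin, cystatin and lysosomal genes, 4 fell in hippocampus, led by the protease genes Ctsk (-0.65 ± 0.09) and Ctsl (-0.44 ± 0.05). In amygdala 3 rose, a share near that of all probe sets, among them Ctsk (0.58 ± 0.09) and Ctsh (0.31 ± 0.05). In accumbens 4 of these 11 genes rose and 1 fell. Of 8 homeostatic microglia genes, Coro1a passed in all 3 regions, at 0.40 ± 0.07 in hippocampus, 0.30 ± 0.07 in amygdala and -0.68 ± 0.07 in accumbens. The fructose transporter gene Slc2a5 rose in accumbens (0.43 ± 0.15; limma adjusted p = 0.0293), and no other gene of that list passed in these regions.

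The members resembled each other only in part. Over the 10 means of line and region, C1qb correlated with Aif1 (r 0.81), Lyz2 (0.76) and Ctss (0.75). No r over these means is given for P2ry12 with Lyz2, as the pair was chosen for opposite line differences. Over the 59 arrays with the mean of each line and region removed, the highest correlation was C1qb with Ctss (0.56). There C1qb stood at 0.22 with Aif1 and 0.06 with Lyz2, and P2ry12 with Lyz2 stood at 0.10. The probe sets most like P2ry12 over the 10 means were those of the glutathione transferase gene Gsta4 (r 0.98), Tmtc3 (0.97) and the serine synthesis gene Phgdh (0.96), with 0.31, 0.24 and -0.06 within groups. Those most like Lyz2 were the immunoproteasome gene Psmb8 (0.91), Rack1 (0.88) and Taf9b (0.88), with -0.10, 0.33 and 0.10 within groups. For Cx3cr1 they were Clpb (0.99), Utrn (0.96) and Dlg1 (0.93), with 0.14, 0.41 and 0.40 within groups. For C1qb they were Fmo1 (0.95), the lipid droplet gene Plin2 (0.95) and Hook1 (0.94), with 0.19, 0.27 and 0.10. For Ctss they were Akap8 (0.96), Rab26 (0.94) and Gtf2ird1 (0.93), with 0.16, 0.44 and 0.23. For Aif1 they were Smad2 (0.92), Arhgap1 (0.91) and Cd200 (0.89), with 0.039, 0.001 and 0.085. Each set was picked as the highest among tested probe sets of other genes over only 10 means, so high values were selected. For P2ry12 the line difference (-0.77) was larger than the range of its region means (9.33 to 9.55). A high r with P2ry12 over the 10 means can therefore reflect a shared line difference alone. Points of 1 region share their animals, and the arrays share their scaling.

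The promoters of 4 members were in the RefSeq table of the rat assembly GRCr8: Lyz2, C1qb, Ctss and Cx3cr1. Those of the 3 that passed in a comparison between regions are shown, as the 250 bases before the annotated start. GAGGAA, the core letters bound by PU.1, the transcription factor of macrophages and microglia, was searched on both strands and is in capitals; on the opposite strand it reads TTCCTC. Lyz2 lies at chr7:54798012-54798261 (minus strand), C1qb at chr5:154407828-154408077 (minus strand) and Ctss at chr2:185775146-185775395 (plus strand).
Lyz2: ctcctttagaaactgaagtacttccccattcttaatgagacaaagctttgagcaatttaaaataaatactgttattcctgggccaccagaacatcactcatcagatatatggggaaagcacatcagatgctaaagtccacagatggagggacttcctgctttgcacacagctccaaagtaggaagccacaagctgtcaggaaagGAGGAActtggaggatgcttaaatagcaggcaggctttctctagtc
C1qb: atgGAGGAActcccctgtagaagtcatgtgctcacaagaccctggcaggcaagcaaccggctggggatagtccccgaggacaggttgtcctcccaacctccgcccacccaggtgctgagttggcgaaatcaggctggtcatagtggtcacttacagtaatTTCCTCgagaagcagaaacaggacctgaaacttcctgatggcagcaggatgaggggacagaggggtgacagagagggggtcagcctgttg
Ctss: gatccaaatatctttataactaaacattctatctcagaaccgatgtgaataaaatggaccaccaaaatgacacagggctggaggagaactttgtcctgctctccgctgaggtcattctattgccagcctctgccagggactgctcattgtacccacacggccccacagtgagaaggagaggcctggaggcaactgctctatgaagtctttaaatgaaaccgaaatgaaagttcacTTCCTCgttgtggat
Lyz2 held 1 match as written, C1qb 1 on each strand and Ctss 1 on the opposite strand. Cx3cr1 (chr8:128677067-128677316, minus strand) held 0. Thus 3 of 4 promoters held the letters, where 7812 of 33469 promoters of the table did (23.3%). A match of 6 letters is a description of the sequence and not a binding site.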

How the data were processed

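Total RNA of 5 brain regions from 12 rats was hybridised on a rat Affymetrix expression array, and 59 arrays were analysed. The authors deposited 1 intensity per probe set and array, on a linear scale. The software they used goes unnamed (not given in the sources used here). Every array had a 2% trimmed mean of 1000, so the values were already scaled and no further scaling was applied. Titles and genotype gave line and region. The source name, iNP for every array, was not used. Precision is limited by the number of animals.

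Signals under 16 were set to 16 and log2 transformed. Of 8799 probe sets, 59 controls and the 40% with the lowest mean were left out, which left 5244. Single gene symbols (7006 probe sets; 308 had several and 1426 none) came from the platform annotation, of which 6985 matched the GRCr8 gene table and none changed. Tests used limma 3.58.1 (R 4.3.3; eBayes with a trend on intensity), two-sided, with Benjamini-Hochberg adjustment over all 5244 probe sets and calls under 0.05. Line differences (iP minus iNP) were fitted on animal means with each region's mean removed, and in each region alone. The interaction and each region against the other 4 had the animal as a fixed block; the pairing comes from the animal numbers in the titles. The fits were first tested on simulated data holding changes of known size.

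The members, the 14 gene lists and the tests were chosen with earlier results of these data known. The brightest probe set stood for a gene of a list or of the correlations. Up to 6 called and 3 uncalled genes of each list could be named, and the 3 probe sets most like each member. Alternatives were the floor, the filter, quantile and median scaling, no variance trend, array weights, a random block for animals, and leaving out arrays or animals.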

Additional observations from a re-analysis of the deposited data

Results flagged for a closer look

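An array was singled out where its gap to the nearest of its group exceeded Dixon's 95% critical value. Of 90 groups of line, region and probe set tested, 8 held such an array, where chance gives about 1 in 20 groups. Lyz2 of iP animal 5 was low in striatum (727.5; the other iP arrays 1267 to 1612) and in accumbens (1564.2; the others 2293 to 2774). Aif1 on U10894_s_at was high in cortex of the same animal (782.0; the others 325 to 392), on the array that lay nearest amygdala. It was low in striatum of iP animal 6 (238.3; 368 to 445) and in hippocampus of iP animal 4 (192.8; 267 to 307). The dimmer C1qb probe set was high in accumbens of iP animal 4 (1377.4; 874 to 1016), on the array nearest amygdala. It was low in hippocampus of iNP animal 11 (526.8; 690 to 745), and Ctss was low in striatum of that animal (6268.1; 7655 to 8447). Without iP animal 5 the Lyz2 difference in accumbens was 1.16 ± 0.15 (limma adjusted p = 0.00135).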

How the results depend on the processing

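No result changed direction with a call under any alternative run. The line differences over all regions held in all 24 alternatives for P2ry12 (-0.84 to -0.71; limma adjusted p from 2.46e-07 to 0.00341) and for Lyz2 (0.50 to 0.57; 7.2e-06 to 0.000301), and the Lyz2 rise in accumbens held in all 23 (0.94 to 1.16; 9.61e-05 to 0.0198). P2ry12 was less secure in single regions: it held in 16 of 22 alternatives in hippocampus (limma adjusted p from 0.0097 to 0.0777) and in 13 of 24 in amygdala (0.015 to 0.256). Where a call was lost or gained, the cause was not tested.

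Leaving out 1 animal at a time gave 9 to 24 calls in cortex (24 without iP animal 5), 37 to 45 in striatum, 25 to 36 in hippocampus, 22 to 51 in amygdala (22 without iP animal 4 and 25 without iNP animal 9, 10 or 11), 19 to 37 in accumbens (19 without iNP animal 9) and 107 to 191 over all regions. Member calls were 0 to 1 in striatum, hippocampus and amygdala. Calls in cortex were 24 without the 2 arrays or the 6 arrays, 37 with array weights and 56 (1 member) with the animal as a random replicate block in 1 fit. That block gave 1 member in striatum, 59 calls and 0 members in amygdala and 51 calls in accumbens. Array weights gave 1 member in striatum and 2 in hippocampus, as did the grouping of animals as a covariate (1 and 2), which was chosen after seeing the data. Quantile normalization gave 2 members in hippocampus and 0 in amygdala between the lines, and 2 in accumbens against the other regions. Median centring gave 0 members in amygdala between the lines, 0 in cortex against the other regions and 1 in accumbens against them. With 60% of probe sets dropped, accumbens had 19 line calls. Hippocampus then had 3 members against the other regions, as the Aif1 probe sets fell under that filter and were not tested. Without the 6 arrays, also chosen after seeing the data, 0 members were called between the lines in amygdala and 8 in amygdala against the other regions. Leaving out arrays by regional likeness can raise regional calls of any probe set. The member counts under these alternatives are given without the share of all probe sets called there, so they are descriptions and no trait of the members. A floor of 100 gave 1 interaction call. Without the replicate block, the brighter C1qb probe set in accumbens lost its call (0.21 ± 0.08, limma adjusted p = 0.076), and no other member's call between regions changed. The median line difference of all probe sets, dim ones included, moved by under 0.1 (-0.02 as deposited, 0.00 with quantile normalization, 0.01 with median centring). Counting each member result once under each alternative, 27 calls were lost and 18 gained, and the other 1511 stayed on their side of the threshold, called or not.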
